A study of Mus musculus with 14 samples.

Results

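The 10 genes followed here, of the 55487 in the deposited gene table, were chosen by name as markers of macrophage identity or as parts of the Trem2-Tyrobp receptor complex. They were the transcription factor gene *Spi1*, the surface genes *Csf1r*, *Adgre1*, *Cd163* and *Mrc1*, the lysosomal genes *Cd68* and *Lyz2*, and the receptor and adaptor genes *Trem2*, *Tyrobp* and *Fcer1g*. The choice was made with earlier results of these data known, so counts among the 10 set beside all genes are descriptive. All 10 passed the filter on low counts, which kept 16915 genes with more than 1 CPM (a count scaled to the size of its library) in 3 libraries or more. RNA came from intervertebral discs (IVDs) of the tail of male mice, pooled within each mouse, with 1 library per mouse and 14 libraries in all. The db/db mice (n = 3), homozygous for a mutation of the leptin receptor gene *Lepr*, were compared with their db/+ littermates (n = 3), which carry a single mutant copy, all at 3 months of age. The STZ-HFD mice (n = 4) were C57BL/6J mice that received a high-fat diet (HFD) for 4 to 6 weeks, a single injection of streptozotocin (STZ, a toxin of insulin-producing cells) at 100 mg/kg, and the diet for another 12 weeks. Their controls, called Con+Veh (n = 4), were wild-type mice that received chow and the citrate buffer alone. In the STZ-HFD cohort mice were 12 weeks old at the start. The cohorts thus differed in age and schedule and may differ in strain background, and each model was compared only with its own control.

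Macrophages are phagocytes that settle in tissues before birth or arise from blood monocytes. Their identity rests on PU.1, the transcription factor encoded by *Spi1*, and on signalling through the CSF1 receptor, which keeps them alive. TREM2 is a lipid-sensing receptor with no signalling tail of its own. It pairs with the adaptor TYROBP (DAP12), whose tyrosine motif (ITAM) recruits the kinase SYK, while FCER1G is a related adaptor that serves Fc receptors. The healthy disc is largely avascular and holds few macrophages, and most are found at its outer margin and endplates. Several of the 10 genes are also used by other myeloid cells: osteoclasts use *Csf1r*, *Tyrobp*, *Trem2* and *Spi1*, neutrophils use *Lyz2*, *Tyrobp*, *Fcer1g* and *Spi1*, and mast cells use *Fcer1g*.

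Total counts ran from 16076908 in STZ-HFD replicate 1 to 58943169 in Con+Veh replicate 2, of which ribosomal RNA took 28.1% to 60.2%. Ribosomal RNA took at most 39.7% in the db groups and at least 44.4% in the other cohort. Con+Veh replicate 2 and STZ-HFD replicate 4, whose library names end in RIP (a suffix the sources used here do not explain), stood apart, with the highest shares of ribosomal RNA (60.2% and 58.3%) and with 21.8% and 21.1% of mitochondrial ribosomal RNA against 3.62% to 12.9% elsewhere. The levels below are CPM scaled by the library total times its TMM factor. On that scale 3 counts correspond to 0.0431 to 0.163 CPM, a floor that covers counting error only. That factor was 1.58 in STZ-HFD replicate 1, against 0.69 to 0.74 in the other STZ-HFD libraries. Markers of nucleus pulposus, annulus fibrosus and chondrocytes were present in every group, at unlike levels in the cohorts. Annulus fibrosus markers were summed at 17894 to 21455 CPM in db/+ and 10869 to 19232 CPM in db/db. In Con+Veh and STZ-HFD they were at 1606 to 3187 CPM and 928 to 2891 CPM. Nucleus pulposus markers were summed at 11716 to 22206 CPM in db/+ and 1657 to 2683 CPM in Con+Veh. The part of this gap in comparisons between the models was not tested. The *Lepr* count spans both alleles and does not check the genotype. In bulk tissue, fewer macrophages and less RNA per macrophage cannot be told apart.

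**Figure D1:**
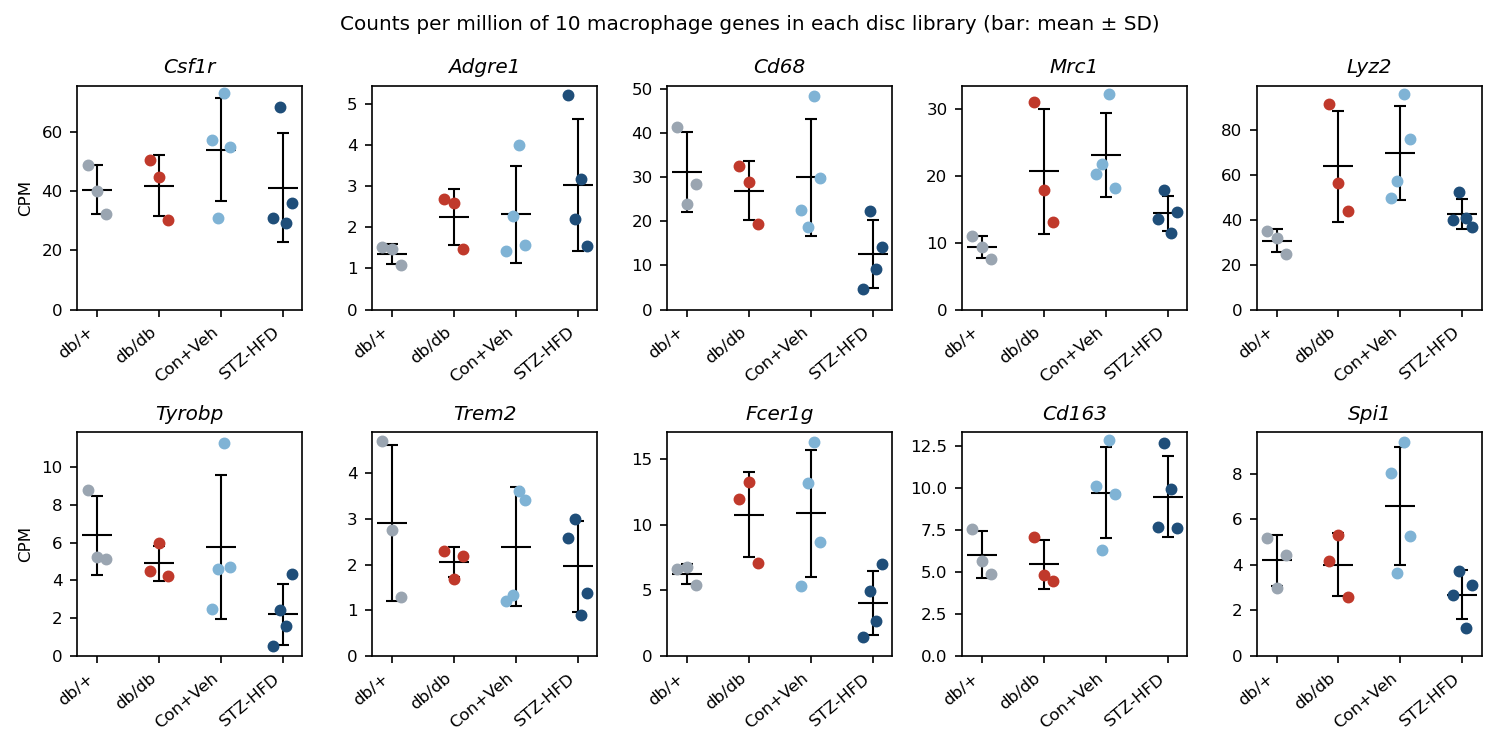
CPM of the 10 genes (y axes, linear from 0, each with its own range) in the 14 libraries, grouped by mouse group on the x axis. Each point is a mouse, the horizontal bar is the group mean and the whiskers are 1 SD. Con+Veh replicate 3 is the highest Con+Veh library in every panel, and *Mrc1*, *Lyz2* and *Fcer1g* are the panels in which every db/db point lies above every db/+ point.

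The 10 genes differed widely in level. Per kilobase of exon, *Lyz2* and *Cd68* were the highest of the 10 in every group. In Con+Veh discs *Lyz2* averaged 53.1 ± 15.8 CPM per kb and *Cd68* 23.9 ± 10.5 CPM per kb (SD, n = 4), with overlapping libraries. *Fcer1g*, *Csf1r* and *Tyrobp* followed at 12.4 ± 5.51, 9.34 ± 3.00 and 8.66 ± 5.71 CPM per kb in Con+Veh discs, an order in which neighbours overlapped. *Mrc1*, *Spi1* and *Cd163* lay at 3.63 ± 0.98, 2.44 ± 0.96 and 1.78 ± 0.49 CPM per kb. *Adgre1*, which encodes the antigen F4/80, and *Trem2* were the lowest in all 4 groups, at 0.71 ± 0.36 and 0.48 ± 0.26 CPM per kb in Con+Veh discs. Lengths count every annotated exon, so levels per kilobase are low estimates for a gene with long minor transcripts, and the *Trem2* exons add up to 4946 bases. The order of *Lyz2* and *Cd68* changed between groups. In db/+ discs their libraries overlapped (23.3 ± 3.91 and 24.9 ± 7.22 CPM per kb, n = 3), whereas in db/db discs all *Lyz2* values were above all *Cd68* values (48.6 ± 18.9 and 21.4 ± 5.34 CPM per kb, n = 3).

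In db/db discs none of the 10 genes passed the test, and *Mrc1*, *Lyz2*, *Fcer1g* and *Adgre1* had the highest log2 fold changes. Calls needed an adjusted p below 0.05 together with a log2 fold change of 1 or more in either direction, in limma's voomWithQualityWeights, the p-values being adjusted over all 16915 genes by Benjamini-Hochberg. Of all genes, 1.23% were called higher and 0.432% lower in db/db. At an unadjusted p under 0.05, 2 of the 10 were higher (10.7% of all genes) and none was lower (10.4%). edgeR's quasi-likelihood test called 0 of all 16915 genes in either direction, and so 0 of the 10. In that test 2 of the 10 had an unadjusted p under 0.05, beside 1891 of all genes. DESeq2 called 160 genes higher and 52 lower over all genes, with 2 of the 10, *Mrc1* and *Lyz2*, called higher. The median log2 fold change of the 10 was -0.01, beside -0.04 over all genes tested, with 5 genes above 0 (47.3% of all genes) and 5 below (52.7%). Without db/+ replicate 1 that split was 9 and 1, and without db/db replicate 3 it was 7 and 3, with 4 genes higher at an unadjusted p under 0.05. The median over all genes was -0.03 in both settings. Without db/db replicate 3, 2986 of all 16839 genes had an unadjusted p under 0.05 in either direction.

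*Mrc1* encodes the mannose receptor CD206, an endocytic receptor of resident and alternatively activated macrophages (ENSMUSG00000026712, chromosome 2 from 14229392 to 14332057, GRCm38). Its levels in db/+ discs were 11.02, 9.41 and 7.62 CPM, and in db/db discs 31.0, 17.9 and 13.02 CPM. Every db/db mouse was above every db/+ mouse, a pattern found for 14.1% of all genes in this direction. Its log2 fold change was 1.05 with a standard error of 0.31 and an adjusted p of 0.0769 (limma, Benjamini-Hochberg). The adjusted p ran from 0.00963 to 0.309 over the alternatives.

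*Lyz2* encodes lysozyme M, a secreted enzyme that cuts bacterial cell walls (ENSMUSG00000069516, chromosome 10 from 117277331 to 117282321). It was at 35.0, 32.1 and 25.0 CPM in db/+ discs and at 91.7, 56.3 and 43.8 CPM in db/db discs. The groups did not overlap, and the mean went from 30.7 ± 5.15 to 63.9 ± 24.9 CPM (SD, n = 3). Limma gave a log2 fold change of 0.98 with a standard error of 0.27 and an adjusted p of 0.0606 (limma, Benjamini-Hochberg), with adjusted p values from 0.00844 to 0.244 over the alternatives. Its neighbour *Lyz1* has a near-identical sequence, so reads may be split between both genes.

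*Fcer1g*, the adaptor of Fc receptors (ENSMUSG00000058715, chromosome 1 from 171229572 to 171234365), was at 6.63, 6.78 and 5.38 CPM in db/+ discs. In db/db discs it was at 11.9, 13.2 and 7.10 CPM, again without overlap. Its log2 fold change of 0.73 (standard error 0.36) had an adjusted p of 0.253 (limma, Benjamini-Hochberg). Of the mast cell markers, 5 of 7 were tested and 0 were called, 4 at an unadjusted p under 0.05 and all 5 above 0. Their summed level was 8.73 to 9.64 CPM in db/+ and 16.1 to 27.3 CPM in db/db, and its part in the *Fcer1g* values was not tested. For *Adgre1* it was 0.69 (standard error 0.43), with 1 db/db library at the db/+ level.

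The remaining genes had log2 fold changes between -0.33 and 0.02 in db/db discs. *Csf1r*, the receptor for CSF1 and IL-34 (ENSMUSG00000024621, chromosome 18 from 61100598 to 61132149), was at 48.9, 40.1 and 32.3 CPM in db/+ and at 50.5, 44.8 and 30.2 CPM in db/db. The groups largely overlapped, and the log2 fold change was 0.02 with a standard error of 0.30. *Tyrobp* (ENSMUSG00000030579, chromosome 7 from 30413760 to 30417585) was at 8.78, 5.22 and 5.15 CPM in db/+ and at 4.48, 5.96 and 4.24 CPM in db/db. *Trem2* (ENSMUSG00000023992, chromosome 17 from 48346401 to 48354147) was at 4.70, 2.75 and 1.29 CPM in db/+ and at 2.30, 1.68 and 2.18 CPM in db/db. Both had a log2 fold change of -0.33, with standard errors of 0.40 and 0.44. Those of *Cd68*, *Cd163* and *Spi1* were -0.20, -0.16 and -0.04, each smaller than its standard error.

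Markers of other cell types were compared in the same libraries. Adipocyte markers were summed at 70.7 to 102 CPM in db/+ and 184 to 327 CPM in db/db, with 3 of 5 called higher. Fat tissue holds its own macrophages, and the part of these cells in the *Mrc1* and *Lyz2* values was not tested. Monocyte markers other than *Vcan*, which disc cells also express, stayed at 1.60 to 3.303 CPM in db/+ and at 2.86, 7.13 and 2.14 CPM in db/db. Neutrophil markers were summed at 1.32 to 7.34 CPM in db/+ and at 2.25, 24.5 and 2.42 CPM in db/db, a single library being high, with *Ly6g* at 0 in 13 of the 14 libraries. Dendritic cell markers, of which 3 of 7 were tested and 0 called, were summed at 15.6 to 20.5 CPM and 26.5 to 41.1 CPM. Osteoclast markers were lower in sum, at 237 to 413 CPM in db/+ and 116 to 327 CPM in db/db, with 0 of 6 tested called. Skeletal muscle markers had 1 of 6 called lower and endothelial markers 1 of 5 called higher. None was called among the tested markers of monocytes, neutrophils, B cells, platelets, erythroid cells, nucleus pulposus, annulus fibrosus or chondrocytes in this contrast. Nucleus pulposus markers were nevertheless below 0 in 7 of 7 (median log2 fold change -1.03, 2 at an unadjusted p under 0.05), with sums of 11716 to 22206 CPM in db/+ and 4391 to 12044 CPM in db/db. Skeletal muscle markers were below 0 in 6 of 6 (median -1.32, 5 at an unadjusted p under 0.05), with sums of 3758 to 7290 CPM and 2329 to 3780 CPM. The part of these tissues in the macrophage values was not tested.

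In STZ-HFD discs *Cd68*, *Lyz2*, *Fcer1g* and *Spi1* were called lower, 4 of 10 genes beside 1.31% of all genes, and none was called higher (1.3% of all genes). All 10 log2 fold changes were below 0 (52.8% of all genes), and 7 of the 10 had an unadjusted p under 0.05 in that direction (9.54% of all genes). Their median was -1.03, beside -0.04 over all genes tested. The number of calls depended on single libraries and on the weights that voomWithQualityWeights gives to each library, in the 10 genes and over all genes. With Con+Veh replicate 3 left out, 0 of the 10 were called, 4 had an unadjusted p under 0.05, the median was -0.64 and *Adgre1* and *Cd163* were above 0. Over all genes, 14 of 16731 were then called lower, against 221 with every library. Those with an unadjusted p under 0.05 in either direction numbered 1431. Con+Veh replicate 3 carried the highest weight, 3.05 against a lowest of 0.275 in Con+Veh replicate 1, and was the highest of its group for all 10 genes. Calls numbered 0 also without Con+Veh replicate 4, STZ-HFD replicate 3 or STZ-HFD replicate 4, with 14, 15 and 100 lower over all genes. They numbered 2 without STZ-HFD replicate 2, 3 without Con+Veh replicate 2, 4 without STZ-HFD replicate 1 and 5 without Con+Veh replicate 1. Over all genes these settings gave 218, 368, 206 and 306 lower. Without both libraries whose names end in RIP 0 of the 10 were called, beside 176 lower over all genes. An unadjusted p under 0.05 was then found for 7 of the 10, beside 2498 of all 16826 genes in either direction. Without quality weights and by edgeR's quasi-likelihood test 0 of the 10 were called, beside 16 and 23 called lower over all genes. In each, 6 of the 10 had an unadjusted p under 0.05, beside 1748 and 2136 of all 16915 genes in either direction. DESeq2 called only *Fcer1g*, beside 154 lower over all genes.

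**Figure D2:**
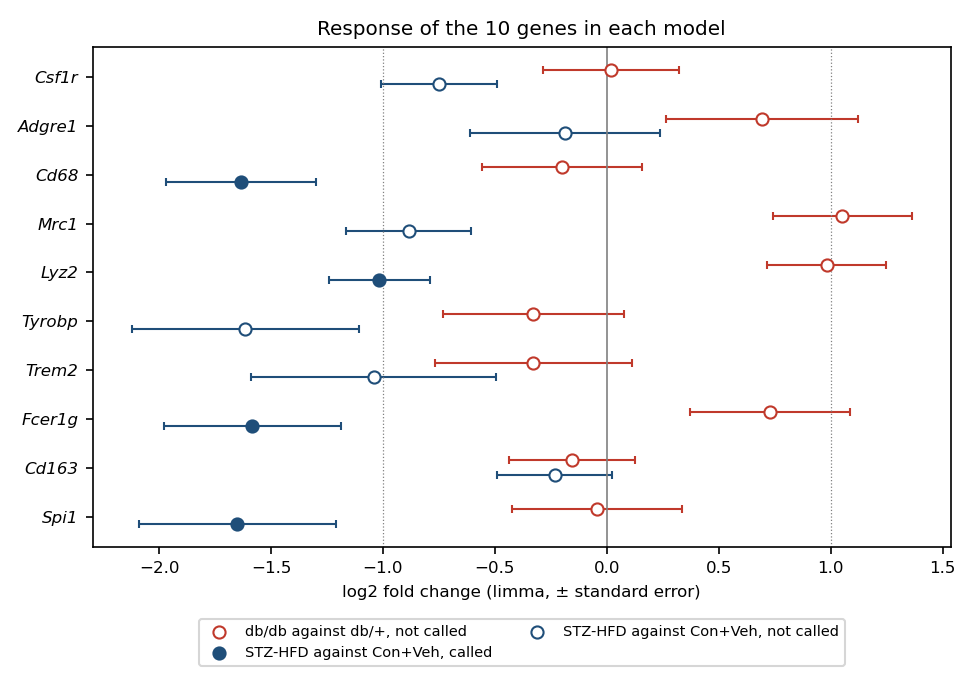
Log2 fold change of each gene (x axis, limma) with its standard error as whiskers, in db/db against db/+ (red) and in STZ-HFD against Con+Veh (blue). Filled points were called (adjusted p below 0.05, beyond the dotted lines at -1 and 1), and all 10 blue points lie left of 0.

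*Spi1* encodes PU.1, which binds the control regions of most macrophage genes (ENSMUSG00000002111, chromosome 2 from 91082390 to 91115756). It was at 8.01, 3.66, 9.40 and 5.27 CPM in Con+Veh discs and at 2.67, 3.75, 1.21 and 3.12 CPM in STZ-HFD discs. A single STZ-HFD library, replicate 2, lay just above the lowest Con+Veh library. The log2 fold change was -1.65 with a standard error of 0.44 and an adjusted p of 0.0480 (limma, Benjamini-Hochberg), and the call was lost in 19 of 27 alternatives, with adjusted p values from 0.0340 to 0.507.

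*Cd68*, a glycoprotein of lysosomes and endosomes (ENSMUSG00000018774, chromosome 11 from 69664213 to 69666153), was at 22.6, 18.8, 48.6 and 29.9 CPM in Con+Veh discs. In STZ-HFD discs it was at 4.65, 22.5, 9.16 and 14.3 CPM. The groups overlapped through STZ-HFD replicate 2, and their means were 30.0 ± 13.2 and 12.6 ± 7.64 CPM (SD, n = 4). By limma this was a log2 fold change of -1.63 with a standard error of 0.34 and an adjusted p of 0.0169 (limma, Benjamini-Hochberg). The call was lost in 9 of 26 alternatives, and without Con+Veh replicate 3 the log2 fold change was -1.12 with an adjusted p of 0.359.

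*Lyz2* was at 49.8, 57.2, 96.2 and 76.3 CPM in Con+Veh discs and at 39.9, 52.6, 41.0 and 36.9 CPM in STZ-HFD discs. Only STZ-HFD replicate 2 reached into the Con+Veh range. This gave a log2 fold change of -1.02 with a standard error of 0.23 and an adjusted p of 0.0216 (limma, Benjamini-Hochberg). Without Con+Veh replicate 3 it was -0.72 with an adjusted p of 0.431.

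*Fcer1g* was at 5.35, 13.1, 16.3 and 8.64 CPM in Con+Veh discs and at 1.44, 4.95, 2.702 and 6.99 CPM in STZ-HFD discs. The lowest Con+Veh library, replicate 1, was below the highest STZ-HFD library, and the other 3 were above all 4. The log2 fold change was -1.58 with a standard error of 0.40 and an adjusted p of 0.0358 (limma, Benjamini-Hochberg), and -1.12 with an adjusted p of 0.473 without Con+Veh replicate 3. *Tyrobp* was at 2.50, 4.59, 11.3 and 4.73 CPM in Con+Veh discs and at 0.534, 2.41, 1.58 and 4.34 CPM in STZ-HFD discs, the lowest value resting on 13 counts. Its log2 fold change of -1.61 (standard error 0.51) was close to that of *Cd68*, but with the wider spread the adjusted p was 0.0897 (limma, Benjamini-Hochberg). Without Con+Veh replicate 3 it was -0.84 with an adjusted p of 0.722.

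*Mrc1* was the only one of the 10 without overlap, at 20.3, 21.8, 32.2 and 18.2 CPM in Con+Veh discs and at 13.6, 17.8, 11.5 and 14.7 CPM in STZ-HFD discs. Such separation downwards was found for 2.77% of all genes. The log2 fold change was -0.89 with a standard error of 0.28 and an adjusted p of 0.0920 (limma, Benjamini-Hochberg), and -0.49 with an adjusted p of 0.741 without Con+Veh replicate 3. *Csf1r* was at 57.1, 30.9, 72.9 and 54.8 CPM in Con+Veh discs and at 31.0, 68.2, 29.1 and 35.9 CPM in STZ-HFD discs. Replicate 2 of each group ran against the rest, being the lowest Con+Veh and the highest STZ-HFD library, and the log2 fold change was -0.75 (standard error 0.26, limma adjusted p = 0.123). Without Con+Veh replicate 3 it was -0.42 (limma adjusted p = 0.789). An exon of *Csf1r* overlaps *Hmgxb3* on the opposite strand, and whether the counting used the strand is not given in the sources used here.

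None of the other 3 genes had an unadjusted p under 0.05 by limma. *Trem2* was at 1.20, 1.33, 3.62 and 3.42 CPM in Con+Veh discs and at 2.59, 2.99, 0.901 and 1.37 CPM in STZ-HFD discs, with group means of 2.39 ± 1.31 and 1.96 ± 0.99 CPM (SD, n = 4). The ranges overlapped almost fully, and the fitted log2 fold change was -1.04 with a standard error of 0.55 and an adjusted p of 0.334 (limma, Benjamini-Hochberg). That value was -0.087 without quality weights, -0.27 by edgeR's quasi-likelihood test, -0.24 by DESeq2, -0.56 without Con+Veh replicate 3 and -0.60 without STZ-HFD replicate 3. *Cd163*, the receptor for haemoglobin-haptoglobin complexes (ENSMUSG00000008845, chromosome 6 from 124304656 to 124330527), was at 10.1, 6.30, 12.8 and 9.61 CPM in Con+Veh discs and at 7.65, 12.7, 9.94 and 7.58 CPM in STZ-HFD discs. Its means of 9.71 ± 2.68 and 9.46 ± 2.40 CPM were nearly equal, and the log2 fold change was -0.23 (standard error 0.26). *Adgre1* (ENSMUSG00000004730, chromosome 17 from 57358691 to 57483527) was at 1.41, 2.26, 3.99 and 1.58 CPM in Con+Veh discs and at 5.22, 2.20, 3.17 and 1.55 CPM in STZ-HFD discs. Its mean was higher in STZ-HFD (3.03 ± 1.60 against 2.31 ± 1.18 CPM) although the weighted log2 fold change was -0.19 (standard error 0.42), and without weights the log2 fold change was 0.36.

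Markers of other cell types were compared in the same libraries, and their part in these values was not tested. Skeletal muscle markers were summed at 6066 to 8194 CPM in Con+Veh and at 6033, 15438, 16620 and 15744 CPM in STZ-HFD, replicate 1 being the low library. Of these markers 6 of 6 were above 0 (median log2 fold change 1.02), 5 had an unadjusted p under 0.05 and 2 were called higher. Chondrocyte markers went from 1282 to 2938 CPM down to 498 to 1215 CPM, with 4 of 6 called lower. Osteoclast markers were at 14.2 to 150 CPM and 30.6 to 87.4 CPM, with 0 of 6 tested called. Monocyte markers other than *Vcan* were at 2.61 to 6.25 CPM in Con+Veh and at 2.03 to 3.91 CPM in STZ-HFD apart from replicate 1, at 15.9 CPM. The neutrophil sum was 1.33 to 17.5 CPM in Con+Veh and 1.62 to 3.03 CPM in STZ-HFD apart from replicate 1, at 9.99 CPM. The T and NK cell sum was 0.33 to 0.96 CPM in Con+Veh and 0.24 to 0.80 CPM in STZ-HFD apart from replicate 1, at 5.22 CPM, with no gene of that list passing the filter. Of the tested markers, 2 of 7 of nucleus pulposus, 1 of 6 of annulus fibrosus and 1 of 3 of monocytes (*Vcan*) were called lower, and none of neutrophils, dendritic cells, mast cells, B cells, erythroid cells, adipocytes or endothelial cells was called. Endothelial markers were summed at 177, 218, 856 and 846 CPM in Con+Veh and 176, 357, 354 and 444 CPM in STZ-HFD. Of these markers 2 of 5 were lower at an unadjusted p under 0.05 and 2 of 5 were above 0 (median log2 fold change -0.05). *Kdr* weighed most in the sums, reaching 649 CPM in a library, while the next highest, *Pecam1*, reached 133 CPM. Con+Veh replicates 3 and 4, with the high sums, carried the highest quality weights, 3.05 and 1.81. The calls in the 10 genes were lost without either of them, and over all genes 14 were then called lower in each case. Adipocyte markers were summed at 155 to 288 CPM in Con+Veh and 245 to 406.5 CPM in STZ-HFD. Of these 5 of 5 were above 0 (median log2 fold change 0.64), 3 with an unadjusted p under 0.05. Mast cell markers were summed at 16.1 to 27.8 CPM and 19.0 to 25.7 CPM.

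The responses of both models were compared directly by the difference of their log2 fold changes. *Lyz2* (2.00, standard error 0.35, adjusted p = 0.0176), *Mrc1* (1.94, standard error 0.42, adjusted p = 0.0308) and *Fcer1g* (2.31, standard error 0.53, adjusted p = 0.0386) differed between the models by limma with Benjamini-Hochberg adjustment. These 3 of 10 stood beside 0.822% of all genes called higher in this contrast, at an adjusted p under 0.05 with no minimum on the fold. The log2 fold changes of all 3 were above 0 in db/db and below 0 in STZ-HFD. Markers of other tissues also differed in this contrast, and their part was not tested. Skeletal muscle markers were below 0 in 6 of 6 (median -2.15, 3 called lower). Endothelial markers had 2 of 5 called higher, and mast cell markers were above 0 in 5 of 5 (median 2.36, 0 called). The difference was above 0 for all 10 genes (51.5% of all genes), 5 of them with an unadjusted p under 0.05 (8.94% of all genes). It was above 0 for 8 of the 10 by edgeR's quasi-likelihood test, by DESeq2 and without quality weights, where *Trem2* (-0.23, -0.24 and -0.19) and *Cd163* (-0.11, -0.12 and -0.17) turned below 0. The median difference over all genes was -0.003, -0.002 and -0.011 under these settings. Without Con+Veh replicate 3, 3 of the 10 had an unadjusted p under 0.05, beside 2102 of all 16731 genes in either direction. The difference was smallest for *Cd163*, at 0.08 (standard error 0.38), and was 0.71 (standard error 0.70) for *Trem2*. Called genes of the 10 numbered 0 without db/+ replicate 2, Con+Veh replicate 3 or STZ-HFD replicate 3. Over all genes 14, 3 and 20 were then called higher, against 139 with every library. They numbered 1 of the 10 without db/+ replicate 3 or db/db replicate 1, beside 79 and 42 over all genes. By edgeR's quasi-likelihood test 0 of the 10 were called (5 over all genes). In that test 3 of the 10 had an unadjusted p under 0.05, beside 1991 of all 16915 genes in either direction. DESeq2 called 3 of the 10 and 130 over all genes.

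Ratios between genes of a library compare macrophage genes with each other. They depend on the scaling of the library only through the prior count of 2, which matters at low counts. Of 4 ratios in 2 models, tested by two-sided exact permutation over mice, none passed after Benjamini-Hochberg adjustment over the 8 tests. With 3 mice against 3 the smallest p is 0.1, and with 4 against 4 it is 0.0286. After adjustment over the 8 tests neither can fall below 0.05. No ratio could therefore pass at these group sizes, and the lack of a pass says nothing about the ratios. The log2 ratio of *Cd163* to *Mrc1* was -0.54, -0.73 and -0.64 in db/+ libraries and -2.12, -1.89 and -1.55 in db/db libraries. All db/db mice were below all db/+ mice by a mean of -1.21 (exact permutation p = 0.1, adjusted 0.2). In the other model the ratio moved the opposite way, by 0.64 (exact permutation p = 0.0571, adjusted 0.2). The ratio of *Fcer1g* to *Tyrobp*, the adaptors of Fc receptors and of TREM2, was 1.08 higher in db/db without overlap (exact permutation p = 0.1, adjusted 0.2) and differed by -0.04 in STZ-HFD (exact permutation p = 0.914). The ratio of *Lyz2* to *Csf1r* was 0.97 higher in db/db, again without overlap (exact permutation p = 0.1, adjusted 0.2), and 0.26 lower in STZ-HFD (a difference of -0.26, exact permutation p = 0.4). The ratio of *Trem2* to *Tyrobp* differed by 0.02 in db/db (exact permutation p = 1) and by 1.24 in STZ-HFD (exact permutation p = 0.229, adjusted 0.366). STZ-HFD replicate 1 gave the highest value of that ratio, 2.18, and its *Tyrobp* level rested on 13 counts. Without that library the difference was 0.52 (exact permutation p = 0.429).

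**Figure D3:**
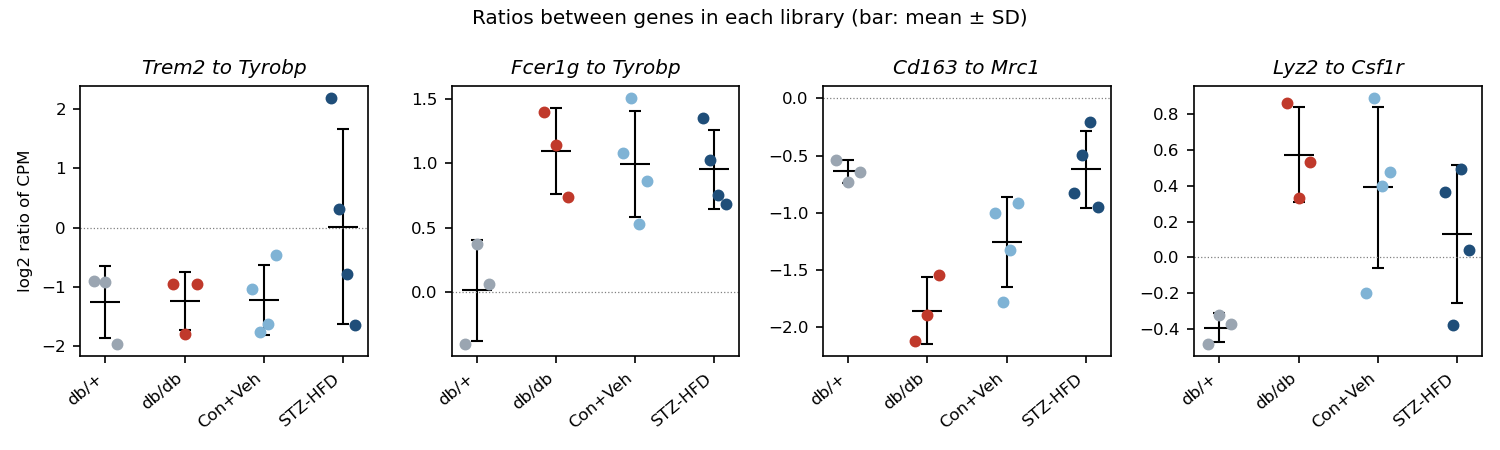
Log2 ratio of CPM (y axes) for 4 pairs of genes in the 14 libraries, by mouse group on the x axis. Points are mice, horizontal bars are group means and whiskers are 1 SD. The db/+ and db/db points do not overlap for *Fcer1g* to *Tyrobp*, *Cd163* to *Mrc1* and *Lyz2* to *Csf1r*.

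Within groups the 10 genes tended to vary together from mouse to mouse. After group means of log2 CPM were subtracted, the median Pearson r over the 45 pairs was 0.47 across 14 libraries, and 42 pairs were above 0. The libraries share depth and tissue content, so these values are descriptive. The closest pair was *Tyrobp* with *Fcer1g* (r = 0.91), followed by *Csf1r* with *Cd163* (0.86), *Mrc1* with *Lyz2* (0.83) and *Tyrobp* with *Cd68* (0.82). *Trem2* followed *Tyrobp* loosely (0.21), although the proteins work as a pair, and lay nearer to *Csf1r* (0.61). *Adgre1* ranged from -0.15 with both *Tyrobp* and *Cd68* to 0.44 with *Mrc1* and 0.50 with *Lyz2*. The summed level of the 10 genes was 116 to 171 CPM in db/+, 129 to 238 CPM in db/db, 160 to 307 CPM in Con+Veh and 109 to 190 CPM in STZ-HFD. Single libraries led most of the genes: db/+ replicate 1 was the highest of its group for 9 of 10, Con+Veh replicate 3 for 10 of 10 and STZ-HFD replicate 2 for 7 of 10, while db/db replicate 3 was the lowest for 9 of 10.

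**Figure D4:**
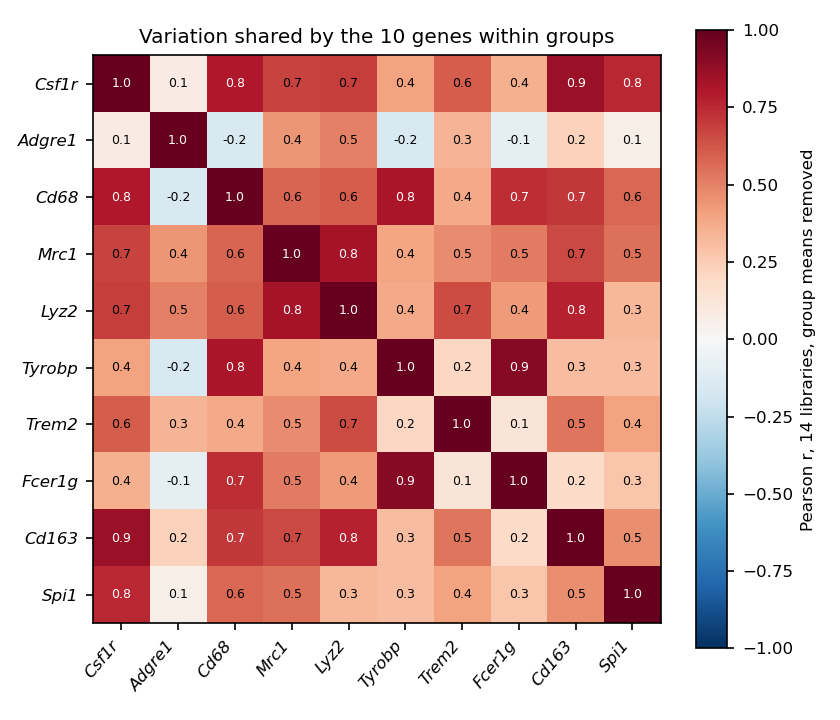
Pearson r between the 10 genes across 14 libraries after group means of log2 CPM were subtracted, as a colour from -1 (blue) to 1 (red) with the rounded value in each cell. *Tyrobp* and *Fcer1g* form the reddest pair off the diagonal, and the *Adgre1* row is the palest.

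Among all genes tested, the 5 outside the list whose pattern was most like *Tyrobp* were *Mrpl24* (r = 0.92), *2810025M15Rik* (0.91), *Pxk* (0.88), *Clcc1* (0.88) and *Sntb2* (0.87). The median r with *Tyrobp* over all genes was 0.05. For *Csf1r* they included *Gpr17* (0.94), *Clpp* (0.93), *Zeb2* (0.92) and *Ibsp* (0.92), and the median over all genes was -0.01. With 16915 genes and 14 libraries, high values of r are reached by many genes.

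The 6 lists of other genes of the pathway were examined, 93 genes in all, of which 77 were tested. These lists too were chosen with earlier results of these data known, so their counts beside all genes are descriptive. In db/db discs 2 of the 77 were called higher (1.23% of all genes) and 0 lower (0.432%), with 39 above 0 (47.3% of all genes). In STZ-HFD discs 0 were called higher (1.3% of all genes) and 9 lower (1.31%), with 64 below 0 (52.8% of all genes). These counts also depended on single libraries, the 9 falling to 0 without Con+Veh replicate 3, to 1 without Con+Veh replicate 4, STZ-HFD replicate 3 or STZ-HFD replicate 4, to 5 without STZ-HFD replicate 1, and to 0 by edgeR's quasi-likelihood test. Lower calls over all genes fell as well, from 221 to 14, 14, 15, 100, 206 and 23 under the same settings in that order. The 2 in db/db fell to 0 without db/+ replicate 2 or 3 or db/db replicate 1 or 2, and to 1 without db/db replicate 3. Higher calls over all genes fell from 208 to 12, 47, 32, 56 and 43 under these settings in that order. At an unadjusted p under 0.05, 11 of the 77 were higher and 3 lower in db/db, beside 10.7% and 10.4% of all genes. In STZ-HFD 2 were higher and 27 lower at that threshold, beside 8.34% and 9.54% of all genes.

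**Figure D5:**
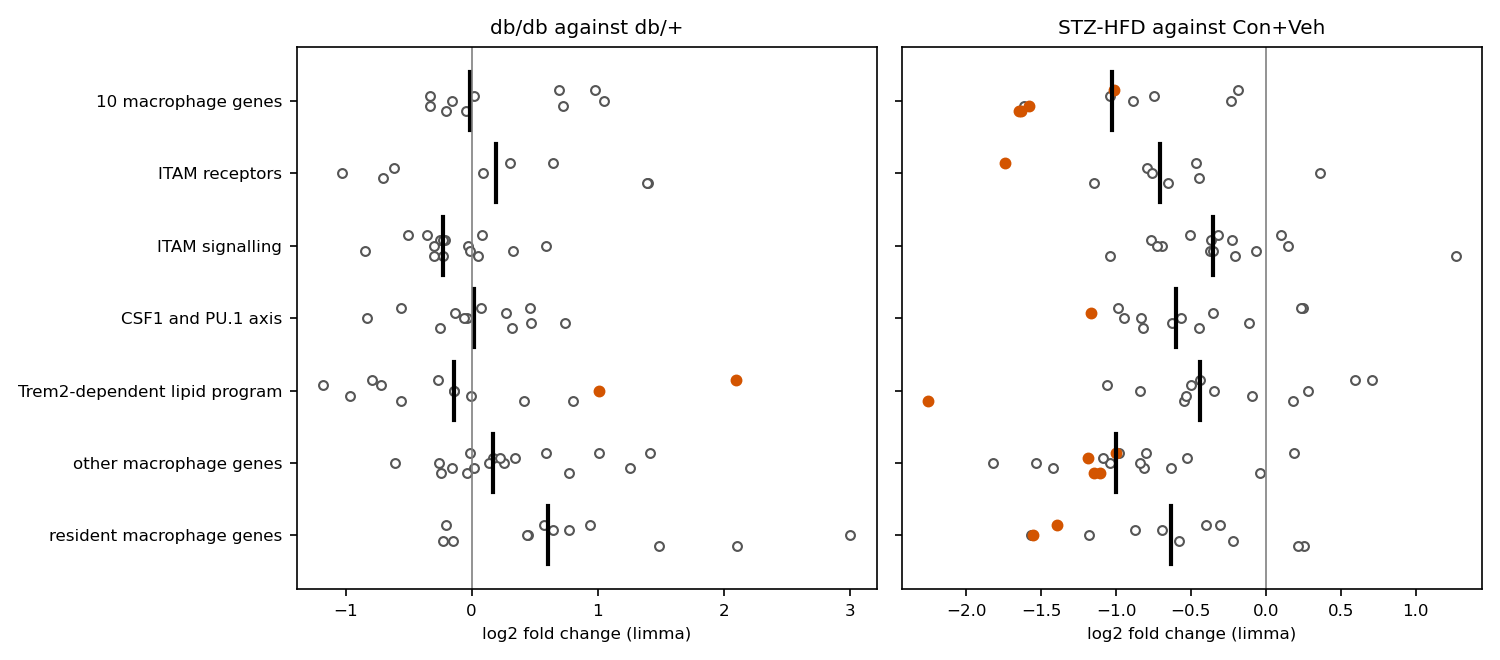
Log2 fold change (x axes, limma) of the 10 genes and of the tested members of 6 further lists (rows), in db/db against db/+ (left) and STZ-HFD against Con+Veh (right). Each circle is a gene, filled orange when called, and the black bar is the median of the list. In the right panel every median lies below 0, and the orange circles all lie at -1 or lower.

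Receptors that signal through ITAM adaptors came first. Of 16 genes 8 were tested, and only *Fcgr3*, a low-affinity receptor for IgG that needs FCER1G, was called. It fell from 8.64 ± 2.78 to 3.12 ± 1.12 CPM in STZ-HFD (SD, n = 4), without overlap between groups, the log2 fold change being -1.74 (limma adjusted p = 0.0329). The median log2 fold change of the list was 0.20 in db/db, and in STZ-HFD it was -0.71. Downstream of the adaptors, none of the 15 ITAM signalling genes was called in either model, with 1 at an unadjusted p under 0.05 in STZ-HFD and none in db/db. The most abundant of these were *Inpp5d*, the phosphatase SHIP1 that opposes PI3K, and *Rac2*, a GTPase of blood cells. *Inpp5d* averaged 9.95 ± 3.54 CPM in Con+Veh and 8.86 ± 1.99 CPM in STZ-HFD, and *Rac2* 6.29 ± 2.76 and 3.10 ± 1.27 CPM.

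In the list of the CSF1 and PU.1 axis, 12 of 13 genes were tested and *Klf4* was called. *Klf4*, a zinc finger factor of monocytes that disc and skin cells also use, fell from 124 ± 44.3 to 64.2 ± 21.5 CPM in STZ-HFD (log2 fold change -1.17, limma adjusted p = 0.0130). The list's median was -0.60 in STZ-HFD and 0.02 in db/db. For the lipid program that depends on TREM2 in other tissues, 13 of 14 genes were tested. *Lpl*, which splits triglycerides of lipoproteins, rose in db/db from 81.0 ± 39.1 to 339.5 ± 116 CPM (SD, n = 3; log2 fold change 2.10, limma adjusted p = 0.0164). *Plin2*, a coat protein of lipid droplets, rose from 12.8 ± 1.62 to 25.8 ± 2.34 CPM (log2 fold change 1.01, limma adjusted p = 0.0285). Both genes are also adipocyte genes, and adipocyte markers rose in the same libraries. *Spp1*, osteopontin, which bone and cartilage cells also make, fell in STZ-HFD from 796.6 ± 280.1 to 216.9 ± 71.4 CPM (log2 fold change -2.25, limma adjusted p = 0.000892), and its log2 fold change was -2.02 without Con+Veh replicate 3, with an adjusted p of 0.0564. The list's median was -0.44 in STZ-HFD discs and -0.14 in db/db discs.

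Of the other macrophage genes, 17 of 18 were tested and 4 were called lower in STZ-HFD, with a median of -1.002. *Cybb*, the catalytic subunit of the phagocyte NADPH oxidase, fell from 14.1 ± 2.83 to 7.24 ± 1.23 CPM (log2 fold change -1.15, limma adjusted p = 0.0216), without overlap. The complement genes *C1qb* and *C1qc* fell by 1.11 and 1.19 on the log2 scale, and *Laptm5*, a lysosomal protein of blood cells, had a log2 fold change of -1.002. The calls of *C1qb*, *C1qc* and *Laptm5* were lost in 15, 13 and 19 of 27 alternatives. Without Con+Veh replicate 3 their limma adjusted p values were 0.507, 0.518 and 0.402. In db/db none was called, 2 had an unadjusted p under 0.05 upwards, and the median was 0.17. Of the genes of resident macrophages, 12 of 17 were tested. *Lyve1*, a hyaluronan receptor also found on lymphatic vessels, fell in STZ-HFD from 39.8 ± 10.8 to 16.8 ± 5.13 CPM without overlap (log2 fold change -1.40, limma adjusted p = 0.0405). *Pf4*, a chemokine of platelets and of some macrophages, fell by 1.56. Its call was lost in 15 of 27 alternatives, with a limma adjusted p of 0.512 without Con+Veh replicate 3. Platelet markers had 0 of 2 tested genes called in this contrast. The median of the resident genes was -0.64 in STZ-HFD and 0.61 in db/db, where 5 genes had an unadjusted p under 0.05 upwards and none was called.

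The promoters of the 6 genes with an entry in the RefSeq promoter table were searched for the PU.1 core motif, because *Spi1* was among the called genes. The entries were those of *Cd68*, *Mrc1*, *Lyz2*, *Trem2*, *Fcer1g* and *Cd163*, while *Csf1r*, *Adgre1*, *Tyrobp* and *Spi1* had none. The searched window was the 250 bases before the start site, on both strands, in GRCm38.p6. The letters GAGGAAGT were found in 0 of the 6 windows and in 2.44% of 32851 windows of all genes. The shorter GAGGAA, which the longer motif contains, was found in 3 of the 6 and in 23.3% of all windows. It began 225 bases upstream in *Cd68* on the strand of the gene, 180, 167 and 35 bases upstream in *Mrc1* and 40 bases upstream in *Trem2*, in both on the opposite strand, where it reads TTCCTC. The windows are shown 5′ to 3′ on the strand of the gene, with GAGGAA or its reverse complement in capitals, for the 3 genes with a match and for *Lyz2* and *Fcer1g*, which were called in STZ-HFD and have none. A match is a description of the letters, not of binding.
Cd68, chr11:69666171-69666420 (minus strand): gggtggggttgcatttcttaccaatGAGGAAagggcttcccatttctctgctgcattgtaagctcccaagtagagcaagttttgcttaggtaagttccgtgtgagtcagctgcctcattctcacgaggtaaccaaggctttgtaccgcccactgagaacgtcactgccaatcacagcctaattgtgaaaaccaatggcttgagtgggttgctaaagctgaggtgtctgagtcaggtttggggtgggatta
Mrc1, chr2:14229164-14229413 (plus strand): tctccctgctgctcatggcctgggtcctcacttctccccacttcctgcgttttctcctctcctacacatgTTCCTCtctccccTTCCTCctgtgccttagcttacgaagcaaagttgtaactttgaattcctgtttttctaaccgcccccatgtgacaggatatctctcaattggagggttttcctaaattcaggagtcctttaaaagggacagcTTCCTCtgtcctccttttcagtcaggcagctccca
Trem2, chr17:48346151-48346400 (plus strand): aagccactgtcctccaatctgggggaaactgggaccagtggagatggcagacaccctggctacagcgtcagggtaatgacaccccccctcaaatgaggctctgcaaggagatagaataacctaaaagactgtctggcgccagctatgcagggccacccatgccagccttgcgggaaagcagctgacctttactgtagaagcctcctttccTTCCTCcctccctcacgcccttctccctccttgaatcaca
Lyz2, chr10:117282273-117282522 (minus strand): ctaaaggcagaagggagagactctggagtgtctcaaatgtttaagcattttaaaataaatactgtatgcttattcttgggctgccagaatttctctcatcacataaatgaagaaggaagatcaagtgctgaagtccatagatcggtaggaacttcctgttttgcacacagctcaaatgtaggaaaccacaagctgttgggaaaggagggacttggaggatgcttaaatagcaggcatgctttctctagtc
Fcer1g, chr1:171234350-171234599 (minus strand): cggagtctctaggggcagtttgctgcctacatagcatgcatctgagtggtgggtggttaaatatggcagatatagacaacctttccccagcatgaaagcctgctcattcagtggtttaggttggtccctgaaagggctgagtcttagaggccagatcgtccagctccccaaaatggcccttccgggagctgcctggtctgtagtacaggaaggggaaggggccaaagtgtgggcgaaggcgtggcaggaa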

How the data were processed

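RNA was amplified with SeqPlex and sequenced from tail discs of 14 mice. The authors used STAR 2.7.9a1 for alignment to GRCm38 with Ensembl annotation (versions as the submitters' notes print them) and deposited whole-number gene counts from featureCounts 2.0.32 without normalization. They also deposited expected counts per transcript from Salmon 1.5.23, used here only for 1 alternative, summed per gene and rounded. Whether counting used the strand is not given in the sources used here. Of 55774 lines, 287 repeat a gene and were used once. Groups come from the sample labels, and each library is a separate mouse, so p-values measure the spread between these mice.

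From the counts, edgeR 4.0.16 TMM factors and limma 3.58.1 voomWithQualityWeights (R 4.3.3), the method the paper names, were run with Benjamini-Hochberg adjustment in 1 fit of 14 libraries with a mean per group, on the 16915 genes above 1 CPM in 3 or more libraries. The test scripts were tested on simulated data. Log2 CPM used a prior count of 2. Positions and exon lengths are from GENCODE M21. Named genes were the 10 members, the called genes of each pathway list (at most 5 per contrast and direction), the 2 most abundant of a list with none called, and the 5 genes most correlated with *Tyrobp* and *Csf1r*, of which 1 is not reported here. The members and lists were chosen with earlier results of these data known. Marker lists cover monocytes, neutrophils, osteoclasts, dendritic cells, mast cells, T and NK cells, B cells, platelets, erythroid cells, skeletal muscle, adipocytes, endothelial cells, nucleus pulposus, annulus fibrosus and chondrocytes. The alternatives tried were DESeq2 1.42.0, edgeR's quasi-likelihood test, voom without weights, RLE size factors, 2 other filters, each model fitted alone, a replicate block, a GC correction, transcript totals, no fold minimum, removal of ribosomal RNA genes, and leaving out libraries.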

Additional observations from a re-analysis of the deposited data

Results flagged for a closer look

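The effects of the models differed, by the test of the difference itself (limma with Benjamini-Hochberg adjustment), for 3 of the 10 genes. The log2 fold change in db/db minus that in STZ-HFD was 1.94 for *Mrc1*, 2.00 for *Lyz2* and 2.31 for *Fcer1g*. Among the alternatives these calls were lost in 12 of 26 for *Mrc1*, 6 of 26 for *Lyz2* and 14 of 25 for *Fcer1g*. In the other lists the difference was 2.67 for *Spp1*, 1.92 for *Cybb*, 2.22 for *Ctss*, which encodes the lysosomal protease cathepsin S, 2.34 for *Lyve1* and 1.52 for *F13a1*, which encodes a clotting factor subunit made by resident macrophages. These 5 of 77 stood beside 0.822% of all genes. The call was lost in 13 of 26 alternatives for *Ctss*, 16 of 26 for *Lyve1*, 14 of 26 for *F13a1*, 6 of 26 for *Cybb* and 6 of 25 for *Spp1*. All 5 were lost without db/+ replicate 2, Con+Veh replicate 3 or STZ-HFD replicate 3, by edgeR's quasi-likelihood test and without weights. Higher calls over all genes fell from 139 to 14, 3, 20, 5 and 3 under these settings in that order. *Ctss* was at 2.44 ± 1.07 CPM in db/+ and 6.18 ± 2.39 CPM in db/db (SD, n = 3), and at 6.92 ± 2.30 CPM in Con+Veh and 5.02 ± 2.99 CPM in STZ-HFD (SD, n = 4). *F13a1* was at 43.9 ± 8.12, 68.1 ± 14.9, 47.3 ± 9.79 and 30.6 ± 8.67 CPM in the same order.

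Dixon's test for a library far from the rest of its group was run on log2 values in 90 groups of 4 libraries, which were the Con+Veh and STZ-HFD groups of the 10 genes, the 4 ratios, the named genes of the other lists and the marker sums. Chance gives about 1 in 20, and 7 stood out, none of them in the 10 genes or the ratios. STZ-HFD replicate 1 was high for *Ctss* (9.497 CPM against 3.34 to 3.78 CPM in the other libraries, a gap of 0.882 of the range), low for *C1qb* (9.04 CPM against 15.3 to 16.9 CPM, 0.839) and low for the sum of skeletal muscle markers (6033 CPM against 15438 to 16620 CPM, 0.927). Without that library the log2 fold change of *C1qb* in STZ-HFD was -1.02 with an adjusted p of 0.0648 (limma, Benjamini-Hochberg). Con+Veh replicate 3 was high for *F13a1* (61.9 CPM against 40.998 to 43.6 CPM, 0.849) and for the adipocyte sum (288 CPM against 155 to 168 CPM, 0.873). Con+Veh replicate 2 was low for *C1qb* (13.8 CPM against 31.5 to 36.99 CPM, 0.837), and STZ-HFD replicate 3 was high for *Lpl* (584.9 CPM against 247 to 266 CPM, 0.911).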

How the results depend on the processing

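Under each of 26 alternatives the median log2 fold change of the 10 genes moved by less than the SD between libraries of their mean log2 CPM. That SD was 0.44 in the STZ-HFD cohort and 0.34 in the db groups. It measures single libraries and is wider than the error of a difference of group means. It cannot show that the median was stable. The median ran from -1.16 to -0.64 in STZ-HFD, against -1.03 with every library, and from -0.11 to 0.24 in db/db. The counts of called genes changed under some of the alternatives, and the cause was not tested. Of the 10 genes in STZ-HFD (4 called lower), 0 were called by edgeR's quasi-likelihood test, without weights, with no filter and without both libraries whose names end in RIP, 1 by DESeq2, with filterByExpr and with each model fitted alone, and 0 to 5 with a library left out. Over all genes 221 were called lower, and 23, 16, 35, 176, 154, 114 and 139 under the named settings in that order. With a library left out the range over all genes was 14 to 368. In db/db (0 called higher), 2 were called by DESeq2, 1 with no filter, and 0 with any library left out. Over all genes 208 were called higher there, and 160, 357 and 12 to 293 under these settings. For the difference between the models (3 higher), 0 were called by edgeR's quasi-likelihood test and without weights, 1 with no filter and without both RIP libraries, and 0 to 3 with a library left out. Over all genes 139 were called higher, and 5, 3, 98, 59 and 3 to 217 under these settings in that order. Of the 77 other genes in db/db (2 higher), 0 were called by edgeR's quasi-likelihood test and without weights, and 0 to 3 with a library left out. Over all genes these settings gave 0, 7 and 12 to 293 higher. In STZ-HFD (9 lower), 0 were called by edgeR's quasi-likelihood test, 2 by DESeq2, 1 without weights, 3 with filterByExpr, 1 with no filter, 4 with ribosomal RNA genes removed, 2 without both RIP libraries, and 0 to 11 with a library left out. Over all genes the lower calls were 23, 154, 16, 114, 35, 187, 176 and 14 to 368 in that order. With no filter the median of all genes was itself -0.36 in STZ-HFD and -0.18 in db/db.

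Whether the replicate numbers pair the mice is not given in the sources used here. After group means were subtracted, same-numbered libraries correlated at -0.28 to 0.19. Libraries of different numbers were not compared, so these values cannot decide it. With the replicate block, 2 of the 10 genes were called higher in db/db and 2 lower in STZ-HFD, and 5 of the other genes were called higher in db/db. With the replicate block and the GC trend removed these counts were 1, 2 and 7. Over all genes, 572 were called higher in db/db and 377 lower in STZ-HFD with the block. With the GC trend also removed these were 471 and 365.

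Directions reversed for the values that follow. In STZ-HFD, the log2 fold change of *Adgre1* was 0.39 by edgeR's quasi-likelihood test, 0.42 by DESeq2, 0.36 without weights, 0.29 without both RIP libraries and -0.38 to 0.42 with a library left out, and that of *Cd163* was 0.025 without weights and -0.37 to 0.083 with a library left out. In db/db, *Spi1* was at 0.028 with no filter, 0.055 with the replicate block and GC trend removed, 0.22 with the GC trend removed, 0.049 from transcript totals and -0.30 to 0.24 with a library left out. *Trem2* was at 0.0053 with the GC trend removed and -0.80 to 0.14 with a library left out, *Cd163* at 0.17 from transcript totals and -0.35 to 0.041 with a library left out, *Cd68* at -0.39 to 0.032 and *Csf1r* at -0.13 to 0.24 with a library left out. For the difference between the models, *Trem2* was at -0.23 by edgeR's quasi-likelihood test, -0.24 by DESeq2 and -0.19 without weights. *Cd163* was at -0.11, -0.12 and -0.17 under the same settings, -0.11 with the replicate block and GC trend removed, -0.13 with the GC trend removed, -0.056 without both RIP libraries and -0.24 to 0.27 with a library left out. The log2 ratio of *Trem2* to *Tyrobp* in db/db was -0.33 to 0.31 with a library left out, and that of *Fcer1g* to *Tyrobp* in STZ-HFD was -0.20 to 0.13, and 0.22 without both RIP libraries. Transcript totals were made only for *Mrc1*, *Lyz2*, *Tyrobp*, *Cd163* and *Spi1*, and no counts of called genes were made from them. Depth limited *Tyrobp*, *Trem2* and *Adgre1* most, with as few as 13, 29 and 29 counts in a library.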
